A study of Mus musculus with 18 samples.

Results

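Axon guidance ligands and receptors were followed in cultured mouse dorsal root ganglia while their Schwann cells myelinated. The genes were taken by symbol: all Sema, Plxn, Epha, Ephb, Efna, Efnb, Unc5 and Robo genes, with Nrp1, Nrp2, Ntn1, Ntn4, Dcc, Neo1, Slit1, Slit2 and Slit3. Of 20145 RefSeq symbols with a probe on the array, 70 met this rule. Of these, 66 were bright enough to be tested among 22855 features. Epha10, Robo3, Unc5cl and Unc5d were too dim to be tested. Unc50 and Unc5cl share the Unc5 prefix but are not netrin receptors. Of the 66 genes, 63 were well above background on all 18 arrays. Epha8, Ntn4 and Robo4 were so on every array of some days only.

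The ganglia came from C57BL/6J embryos at stage E13.5 and were grown on matrigel for 12 days in growth medium, with no genetic change or drug named in the labels. RNA was taken right before the myelination medium (day 0, which the labels call the control), at early myelination after 10 days in it (day 10) and after 22 days, when mature sheaths were plentiful (day 22). Each day had 3 batches, each from a different pool of embryos gathered on another occasion per the series' design text (the sample titles number them as mouse 1 to 3), and 2 arrays per batch that the labels call technical, which makes 6 arrays a day. No culture was kept without the medium, so its effect and that of time in culture cannot be told apart. An explant holds neurons, glia and other cells, and in such bulk RNA fewer cells of a type and less RNA per cell cannot be told apart.

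Guidance cues steer growing axons by attracting or repelling the growth cone. Secreted class 3 semaphorins act through neuropilins, which bind the ligand, and plexins, which signal into the cell, whereas membrane semaphorins mostly bind plexins directly. Ephrins are held on the cell surface, ephrin-As by a lipid anchor and ephrin-Bs by a transmembrane stretch, and they activate Eph receptor kinases on the neighbouring cell. Netrins attract axons through Dcc and repel them through Unc5 receptors, and Slits repel them through Robo receptors. In the peripheral nerve these families also act between axons, Schwann cells, fibroblasts and blood vessels.

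A level here is the log2 intensity of a gene's brightest probe minus the 75th percentile of its array, so levels of different genes are not compared. A change is a log2 difference between days ± the standard error of limma's fit to 9 batch means, n = 3 batches a day. The deposited array files and the authors' value table place the arrays in different batches: 12 of 18 columns of the table hold the values of an array filed under another sample of the same day. A gene is therefore said to have risen or fallen only where its adjusted p was at most 0.05 with both sets of batches, and the larger SE and adjusted p are printed.

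Between 54.8% and 61.5% of the spots that are not controls were well above background on each array. Precision is limited by the 3 batches a day, since the arrays of a batch were averaged. The arrays were spread over 3 slides, slides 1 and 2 holding all 3 days. Sensory neuron markers, 12 of 12 tested, had a mean level of 3.77 on the array filed as batch 1, array 2 of day 0, against 4.66 to 4.80 on the other 5 arrays of that day. Schwann cell and sensory neuron markers were present on every array. At day 10 2 of 10 Schwann cell markers rose (Pmp22 and, on its brightest probe, Mbp), beside 5.75% of all features. In the same comparison 1 fell (Cdh19, -0.76 ± 0.15, adjusted p = 0.0126), beside 7.72%. The mean of 8 macrophage markers ranged from -1.90 to 0.00 on day 0, 0.18 to 1.80 on day 10 and 1.53 to 3.97 on day 22. Over the same days the mean of 7 markers of dividing cells went from between 1.57 and 2.02 to between 0.14 and 0.76 and then to between -2.80 and -0.74. Sensory neuron markers had a mean of 4.68 to 5.06 on day 10 and 3.97 to 4.74 on day 22. The part of these cell types in the results below was not tested.

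**Figure D1:**
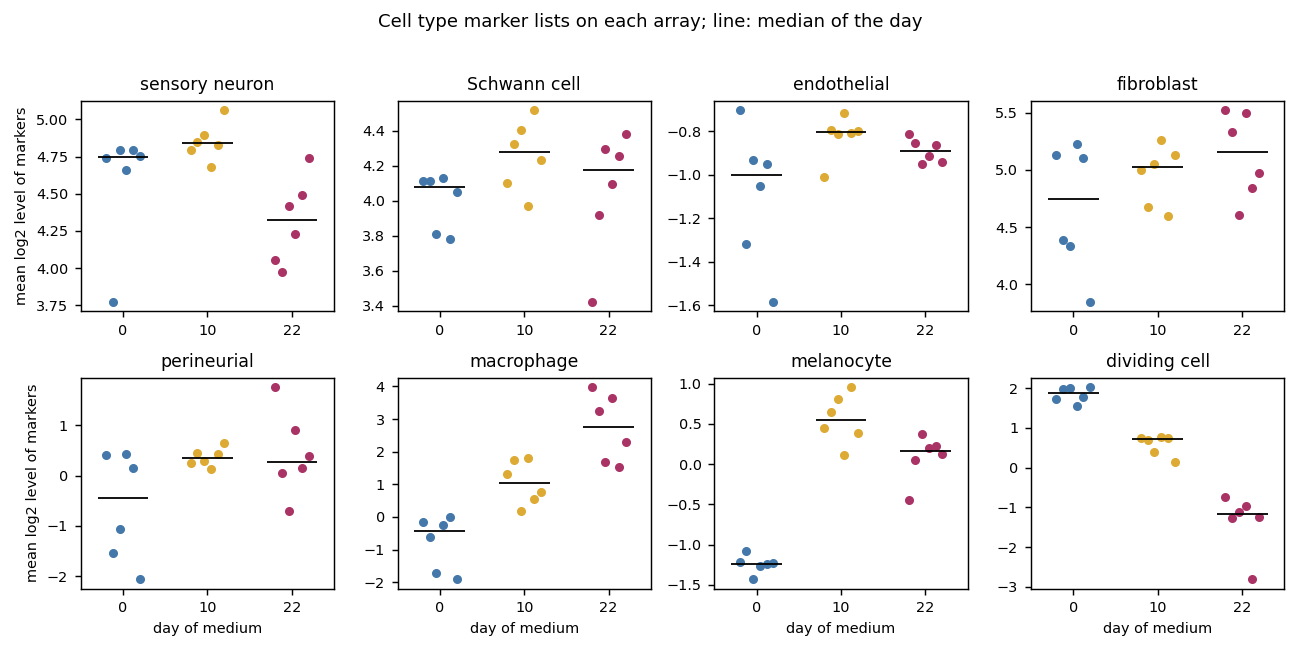
Mean log2 level of the tested markers of 8 cell types (vertical axis, after subtraction of each array's 75th percentile) on each array by day of myelination medium (horizontal axis). Points are arrays, 6 a day, and lines are day medians. Macrophage markers lie between 1.53 and 3.97 on day 22 against -1.90 to 0.00 on day 0, and dividing cell markers fall below 0 on every array of day 22.

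The first comparison asks what differed at early myelination. From day 0 to day 10, 3 of the 66 genes rose (4.55%, beside 5.75% of all features) and 11 fell (16.7%, beside 7.72%). The risers were Ntn4, Slit1 and Sema4g. Falls were spread over receptors and ligands: Sema3c, Nrp1, Plxna3, Plxnb1, Efna5, Efnb1, Epha2, Epha4, Epha7, Robo2 and Robo4. The median change was -0.22, beside -0.06 over all features. Among the called genes only Plxnb1 had arrays of day 0 and day 10 that overlapped. The genes were called on these same arrays, so the separation adds no support.

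The number of genes called was lower whichever batch of day 0 or day 10 was left out, and each such fit held fewer batch means. Sema3c and Robo4 were called with each of the 6 batches left out in turn, and the other 12 were each lost in at least 1 of these fits. The count was 12 without batch 1 of day 0, 5 without its batch 2 or batch 3, 7 without batch 1 of day 10, 5 without its batch 2 and 3 without its batch 3. Within slide 1 alone 1 gene was called, and within slide 2 alone 0. With the batches of the array files alone it was 25, of which 18 fell, and without the array low in neuron markers 12, with Efnb1, Epha2 and Plxnb1 lost and Sema4f gained.

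From day 10 to day 22, as the sheaths matured, 0 genes rose and 0 fell by limma, beside 0.49% and 1.45% of all features, and 10 genes had an unadjusted p under 0.05 (16.9% of all features did). The median change was -0.02 for the 66 genes and for all features. The batches of the array files alone gave 7 genes, all lower: Efna2, Efnb1, Epha4, Plxna3, Sema4f, Sema5b and Sema6b. Sema5b, a membrane semaphorin, had the lowest change, -1.72 ± 0.58 (adjusted p = 0.172), and was called with the replicate block (0.0402).

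From day 0 to day 22, 4 genes rose (6.06%, beside 12.6% of all features) and 18 fell (27.3%, beside 18.6%). Ntn4, Sema3a, Slit1 and Plxnc1 rose. The median change was -0.13, beside -0.08 over all features. Of the 22 calls, 17 held with each batch left out in turn, and the count stayed between 18 and 23. Among the 17 were Epha8, Ntn4 and Robo4, which passed the filter only through the day where each was high. Plxnc1, Plxnd1, Robo2 and Sema6a were lost without batch 3 of day 0 or batch 1 of day 22 (counts of 18 and 23), and so were they and Efnb2 without batch 2 of day 0 (18). Robo2 was also lost without batch 1 of day 0 (23) or batch 2 of day 22 (20), Plxnd1 without that batch 1, Sema6a without that batch 2 and Plxnc1 without batch 3 of day 22 (23). Within slide 1 alone 9 genes were called and within slide 2 alone 14. This comparison shares its arrays with the other comparisons, so the sets are given side by side and not as support for each other.

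**Figure D2:**
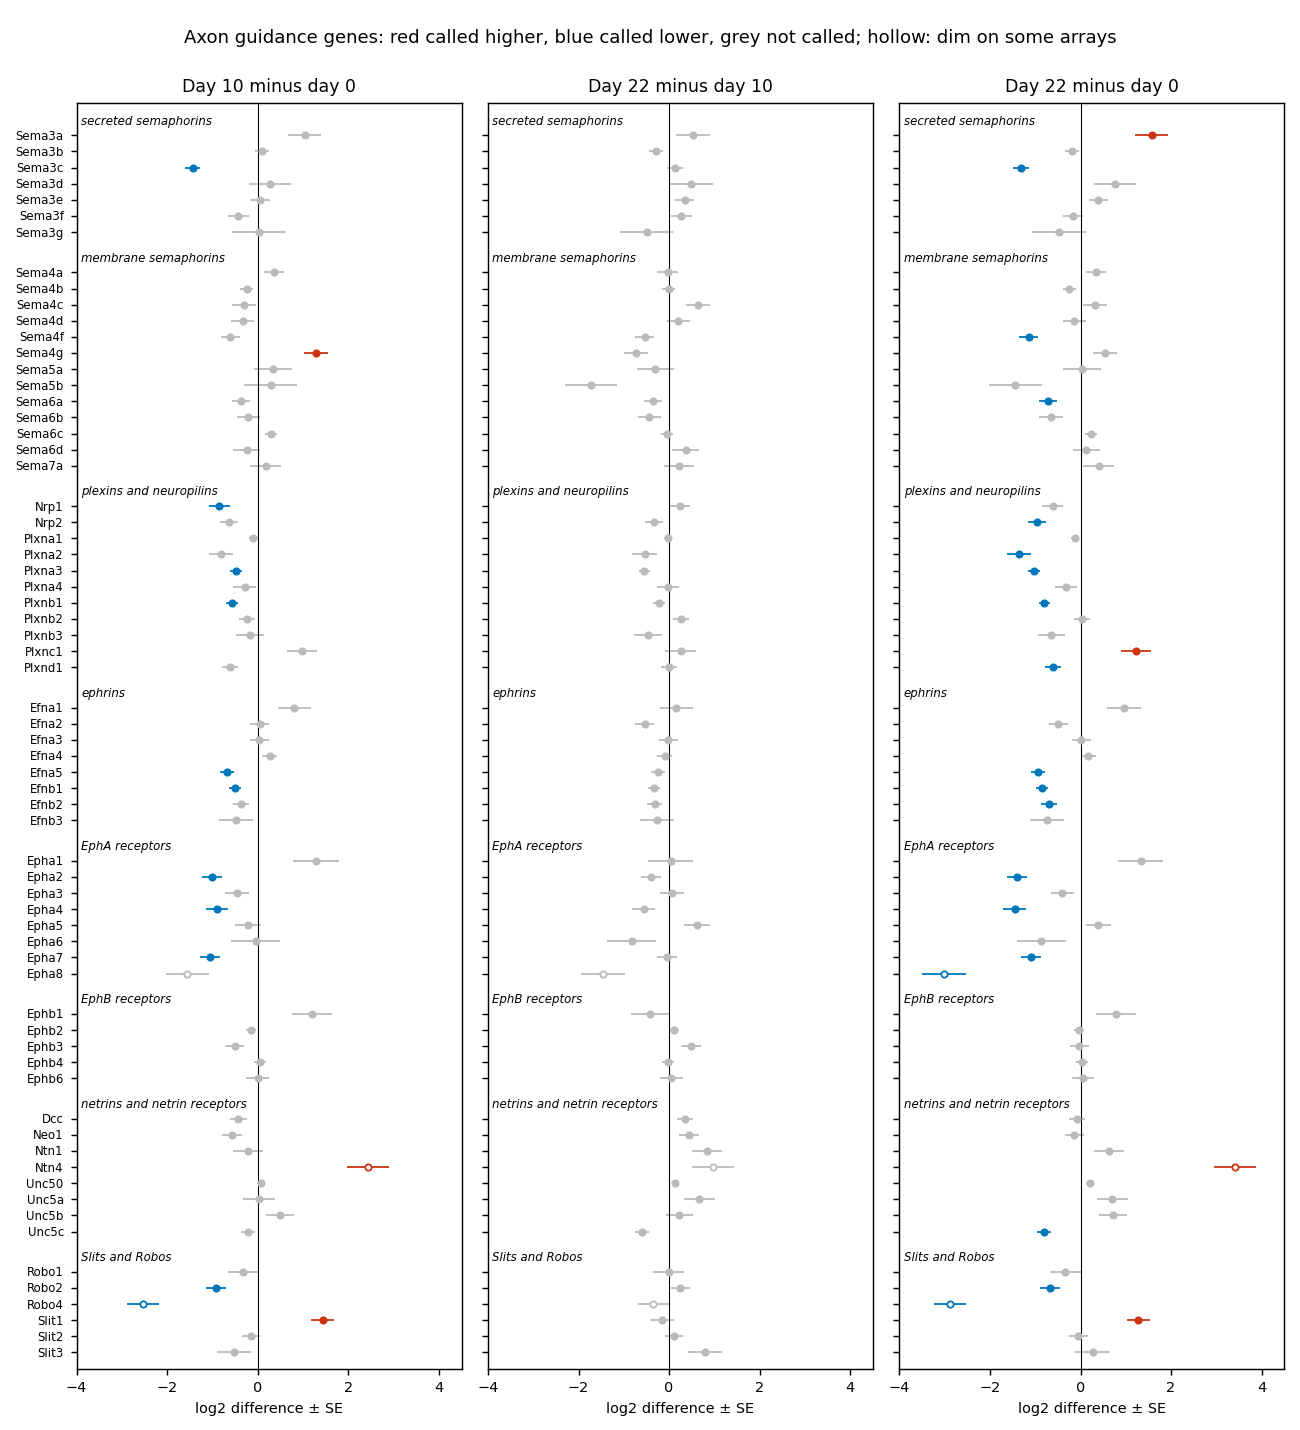
Log2 difference ± SE (horizontal axis) of each of the 66 genes (vertical axis, grouped by role) between day 10 and day 0, day 22 and day 10, and day 22 and day 0. Red points are the 3, 0 and 4 genes called higher, blue the 11, 0 and 18 called lower, and hollow points mark genes dim on some arrays of those days, whose size is uncertain. The 5 EphB receptors are grey in every panel, as are most of the 66 genes.

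Of 7 secreted semaphorins, the class 3 members, 1 fell by day 10 (14.3%, beside 7.72% of all features). By day 22 1 had risen (14.3%, beside 12.6%) and 1 fallen (14.3%, beside 18.6%). Sema3c, a ligand of neuropilin and plexin complexes, ranged from 2.89 to 3.34 (median 3.18) on the 6 arrays of day 0, from 1.26 to 2.05 (median 1.83) on day 10 and from 1.67 to 1.92 (median 1.88) on day 22. All arrays of the later days lay below all of day 0. Sema3c fell by 1.44 ± 0.17 to day 10 (adjusted p = 0.00354) and was at -1.31 ± 0.17 on day 22 (adjusted p = 0.00127), with 0.13 ± 0.17 between the later days (0.747).

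Sema3a, the classic repellent of sensory axons, went the other way. Its levels were -4.35 to -3.13 (median -3.72) on day 0, -3.61 to -1.99 (median -2.73) on day 10 and -2.82 to -1.19 (median -2.25) on day 22. Day 10 overlapped day 0, and day 22 lay wholly above it. The rise to day 22 was 1.57 ± 0.37 (adjusted p = 0.015), or 0.92 ± 0.22 with normexp (0.0123), and the change at day 10 was 1.03 ± 0.37 (adjusted p = 0.101). The other 5 class 3 genes, Sema3b, Sema3d, Sema3e, Sema3f and Sema3g, were not called. Sema3f, the main ligand of Nrp2, differed by -0.43 ± 0.23 at day 10 and -0.16 ± 0.23 at day 22. Sema3g had an SE of 0.59, with a day 22 range of -1.83 to 1.15.

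Among 13 membrane semaphorins 1 rose by day 10 (7.69%, beside 5.75% of all features) and 2 had fallen by day 22 (15.4%, beside 18.6%). Sema4g ranged from -1.69 to -0.84 (median -1.56) on day 0, from -0.56 to 0.02 (median -0.15) on day 10 and from -1.76 to -0.40 (median -0.80) on day 22. Day 10 stood above every array of day 0, while day 22 spread over both. Its rise to day 10 was 1.28 ± 0.26 (adjusted p = 0.0204). At day 22 it differed from day 0 by 0.55 ± 0.26 (adjusted p = 0.147) and from day 10 by -0.73 ± 0.26 (0.198).

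Sema4f levels were 0.76 to 1.99 (median 1.65) on day 0, 0.84 to 1.03 (median 0.93) on day 10 and 0.09 to 0.69 (median 0.43) on day 22. Every array of day 22 was below every array of the earlier days. Sema4f fell by 1.14 ± 0.21 to day 22 (adjusted p = 0.00514), with changes of -0.60 ± 0.21 (0.0896) and -0.54 ± 0.21 (0.229) in the intervals before and after day 10. Sema6a, a transmembrane ligand of A-type plexins, ranged from 0.71 to 1.81 (median 1.16) on day 0, 0.64 to 1.16 (median 0.81) on day 10 and 0.20 to 0.70 (median 0.46) on day 22. Its day 22 arrays lay just under those of day 0, and the fall was 0.72 ± 0.20 (adjusted p = 0.025). The other 10 were not called, including Sema4d, a ligand of Plxnb1 (-0.13 ± 0.26 at day 22), and Sema7a, the lipid-anchored ligand of Plxnc1 (0.40 ± 0.34). With the replicate block Sema5b and Sema6b were called lower at day 22 against day 0 (adjusted p = 0.0124 and 0.0323).

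Of 11 plexins and neuropilins 3 fell by day 10 (27.3%, beside 7.72% of all features), and by day 22 5 had fallen (45.5%, beside 18.6%) and 1 had risen (9.09%, beside 12.6%). Their median change at day 22 was -0.62, beside -0.08. Plxna2, a receptor for Sema6a, had levels of 1.56 to 2.58 (median 2.24) on day 0, 0.75 to 2.25 (median 1.36) on day 10 and 0.48 to 1.14 (median 0.75) on day 22. Day 10 overlapped both other days. The fall to day 22 was 1.35 ± 0.27 (adjusted p = 0.00739), against -0.81 ± 0.27 at day 10 (adjusted p = 0.0817).

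Plxna3, which with Nrp2 forms a receptor for Sema3f, ranged from 0.11 to 0.57 (median 0.36) on day 0, -0.29 to 0.06 (median -0.11) on day 10 and -0.92 to -0.28 (median -0.74) on day 22. Day 0 stood above both later days. The fall was 0.48 ± 0.13 to day 10 (adjusted p = 0.043, but 0.053 with the replicate block and 0.0796 with no filter) and 1.03 ± 0.13 to day 22 (adjusted p = 0.000906). Plxnc1, the receptor of Sema7a, ranged from -1.04 to 0.59 (median -0.22) on day 0, 0.39 to 1.41 (median 0.71) on day 10 and 0.80 to 1.25 (median 1.12) on day 22. It rose by 1.23 ± 0.33 to day 22 (adjusted p = 0.0241), with day 22 above every array of day 0, and by 0.74 on slide 2 alone. At day 10 the change was 0.98 ± 0.33 (0.0852). The other probe of Plxnc1 was called higher at day 10 (1.19 ± 0.26, 0.0246), as was the mean of its probes. Plxnc1 is also found on myeloid cells. All 8 macrophage markers were called higher over the same interval, beside 12.6% of all features. Whether such cells had a part in the rise of Plxnc1 was not tested.

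Nrp2, which binds Sema3f, had levels of 4.0 to 4.49 (median 4.12) on day 0, 3.19 to 3.80 (median 3.64) on day 10 and 2.58 to 3.65 (median 3.23) on day 22. Every later array was below day 0. Nrp2 fell by 0.96 ± 0.20 to day 22 (adjusted p = 0.0089), and at day 10 the change was -0.63 ± 0.20 (0.0727). Its other probe was called lower at day 10 (-0.69 ± 0.18, 0.0413), as was the mean of its probes. Nrp1, the Sema3a-binding neuropilin, fell by 0.85 ± 0.23 to day 10 (adjusted p = 0.0456), from 0.42 to 1.05 down to -0.28 to 0.29. That call was lost with the authors' values (0.0535) and with no filter (0.0785). At day 22 it was at -0.62 ± 0.23 (0.0722), and called with the replicate block (0.0125). Plxnb1 fell by 0.57 ± 0.13 and then stood at -0.80 ± 0.13 (adjusted p = 0.0245 and 0.00272), and Plxnd1, known from blood vessels, fell by 0.61 ± 0.17 to day 22 (0.0286, and 0.0515 with the replicate block). On their brightest probes Plxna1, Plxna4, Plxnb2 and Plxnb3 were not called. Plxna4 was at -0.32 ± 0.25 on day 22, and its other probe was called lower (-0.54 ± 0.16, adjusted p = 0.0316). Plxna1 was at -0.12 ± 0.09.

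Ephrins fell where they were called. Of 8, 2 fell by day 10 (25.0%, beside 7.72% of all features) and 3 by day 22 (37.5%, beside 18.6%), and 0 rose. Efna5, a lipid-anchored ephrin, ranged from 1.48 to 2.05 (median 1.88) on day 0, 0.83 to 1.39 (median 1.17) on day 10 and 0.66 to 1.44 (median 0.79) on day 22. Its arrays of day 0 lay above all later ones, with falls of 0.69 ± 0.15 to day 10 (adjusted p = 0.0264) and 0.93 ± 0.15 to day 22 (0.00337), the latter -0.52 on slide 1 alone. Efnb1, a transmembrane ephrin, had levels of 4.46 to 4.80 (median 4.66) on day 0, 3.98 to 4.34 (median 4.14) on day 10 and 3.45 to 4.11 (median 3.87) on day 22. It fell by 0.51 ± 0.13 (adjusted p = 0.0403, but 0.0505 with the authors' values and 0.0744 with no filter) and 0.85 ± 0.13 (0.0025), again with day 0 apart from both later days.

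Efnb2, which marks arteries as well as guiding axons, ranged from 0.63 to 1.16 (median 0.99), 0.07 to 0.90 (median 0.65) and 0.01 to 0.53 (median 0.22) on the 3 days. Only days 0 and 22 were apart, and the fall between them was 0.69 ± 0.17 (adjusted p = 0.017), a call lost when its probes were averaged. On their brightest probes the other 5 ephrins were not called. Efna3 was at 0.02 ± 0.21 at day 22 on that probe, its second probe fell by 1.29 ± 0.22 (adjusted p = 0.00416, well above background on 3 of 6 arrays of day 22), and the mean of both was called lower. Efna1 had positive changes, 0.81 ± 0.37 and 0.96 ± 0.37 (adjusted p = 0.173 and 0.0767), with a day 0 range of -1.97 to 0.30.

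Eph receptors of the A class fell in part and those of the B class were not called. Of 8 EphA receptors 3 fell by day 10 (37.5%, beside 7.72% of all features) and 4 by day 22 (50%, beside 18.6%). Of 5 EphB receptors 0 were called in any comparison. Of all features 5.75% rose and 7.72% fell by day 10, and 12.6% and 18.6% by day 22. From day 10 to day 22 these shares were 0.49% and 1.45%. At day 10 against day 0, 2 of the 5 had an unadjusted p under 0.05 by limma, beside 30.2% of all features. At day 22 against day 10 and against day 0 the count was 0, beside 16.9% and 42.7%. Whether the classes differ was not tested. Epha2 had levels of 1.75 to 2.90 (median 2.13) on day 0, 0.95 to 1.48 (median 1.32) on day 10 and 0.47 to 1.27 (median 0.91) on day 22. It fell by 1.01 ± 0.22 to day 10 (adjusted p = 0.0234) and was at -1.40 ± 0.22 on day 22 (0.00251), and both later days lay below day 0.

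Epha4, which binds ephrins of both classes, ranged from -1.55 to -0.85 (median -0.93) on day 0, -2.39 to -1.66 (median -1.88) on day 10 and -3.16 to -1.85 (median -2.58) on day 22. Day 0 stood above all other arrays. The falls were 0.89 ± 0.25 (adjusted p = 0.0487, but 0.0679 with the replicate block, 0.0565 with the authors' values and 0.0829 with no filter) and 1.46 ± 0.25 (0.00363). Epha7 went from -1.81 to -0.88 (median -1.53) on day 0 to between -2.89 and -1.96 (median -2.47) on day 10, and held a range of -2.60 to -2.29 (median -2.53) on day 22. On its brightest probe the fall of 1.05 ± 0.22 to day 10 (adjusted p = 0.0211) was followed by a change of -0.04 ± 0.22 (0.948). On that probe day 22 was at -1.09 ± 0.22 against day 0 (0.00755). Another of its 3 probes was not called at day 10 (-0.33 ± 0.28, adjusted p = 0.414). That probe changed by -0.63 ± 0.28 from day 10 to day 22 (0.191). The remaining probe was called lower at day 10 (0.0141), with -0.13 ± 0.19 afterwards. Both were called lower at day 22 against day 0 (0.0215 and 0.00309), so the course before and after day 10 differed by probe.

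Epha8, another ephrin-A receptor, had levels of -3.76 to -1.77 (median -2.50) on day 0, -5.58 to -3.16 (median -4.12) on day 10 and -6.19 to -4.94 (median -5.71) on day 22. It was well above background on 6, 5 and 1 of the 6 arrays of the 3 days, so the day 22 values are near background and the size of the change, -3.01 ± 0.48 (adjusted p = 0.00281), is uncertain. With normexp background correction it was -1.08 ± 0.21 (0.0061). At day 10 the change was -1.55 ± 0.48 (adjusted p = 0.0664). Among EphA receptors that were not called, Epha1 differed by 1.29 ± 0.50 and 1.33 ± 0.50 at days 10 and 22 (adjusted p = 0.119 and 0.0738). Among EphB receptors, Ephb4 and Ephb2 had small changes at day 22, 0.03 ± 0.14 and -0.04 ± 0.11, and Ephb1 differed by 1.20 ± 0.44 at day 10 (0.102).

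Among 7 netrins and netrin receptors tested (Unc50 left out) 1 rose by day 10, beside 5.75% of all features. By day 22 1 had risen and 1 fallen, beside 12.6% and 18.6% of all features. Ntn4, a netrin related to laminin chains and found in basement membranes, had levels of -7.66 to -5.49 (median -7.32) on day 0, -5.25 to -3.17 (median -4.71) on day 10 and -4.39 to -2.65 (median -3.50) on day 22. It was well above background on 1, 5 and 6 of the 6 arrays of these days, so the day 0 level is near background and the size of the rise is uncertain. The fitted rise was 2.43 ± 0.46 to day 10 (adjusted p = 0.015) and 3.41 ± 0.46 to day 22 (0.00134), and no later array overlapped day 0. With normexp the changes were 0.55 ± 0.15 (0.0415) and 0.88 ± 0.15 (0.00259).

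Unc5c, a repulsive netrin receptor, ranged from -1.69 to -0.56 (median -1.21) on day 0, -1.55 to -1.12 (median -1.36) on day 10 and -2.29 to -1.49 (median -1.94) on day 22. It fell by 0.80 ± 0.15 to day 22 (adjusted p = 0.00614), with the arrays of days 0 and 22 overlapping. Dcc, the attractive netrin receptor, was at -0.42 ± 0.18 on day 10 (adjusted p = 0.146) and -0.08 ± 0.18 on day 22 (0.754). Neo1, which binds netrins and repulsive guidance molecules, differed by -0.57 ± 0.22 at day 10 (0.11) and was called there with the replicate block (0.0476). Ntn1, the founding attractant, had a change of 0.62 ± 0.33 at day 22 (0.182), and Unc5a, called higher with the replicate block (0.0419), and Unc5b were at 0.71 ± 0.35 and 0.72 ± 0.31.

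Of 6 Slit and Robo genes 1 rose (16.7%) and 2 fell (33.3%), both by day 10 and by day 22. Of all features 5.75% rose and 7.72% fell by day 10, and 12.6% and 18.6% by day 22. Slit1, a repellent ligand of Robo receptors, had levels of -0.69 to 0.14 (median -0.34) on day 0, 0.79 to 1.69 (median 1.13) on day 10 and 0.32 to 1.64 (median 1.08) on day 22. Both later days lay above day 0 on every array. Slit1 rose by 1.43 ± 0.26 to day 10 (adjusted p = 0.0133) and stood at 1.28 ± 0.26 on day 22 (0.00787). Slit2 and Slit3 were not called, at -0.05 ± 0.20 and 0.27 ± 0.38 on day 22.

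Robo2, a neuronal Slit receptor, ranged from 0.08 to 1.18 (median 0.31) on day 0, -0.87 to -0.16 (median -0.46) on day 10 and -0.77 to 0.13 (median -0.20) on day 22. It fell by 0.93 ± 0.21 to day 10, where the arrays were apart (adjusted p = 0.0268), and by 0.68 ± 0.21 to day 22, where they overlapped (0.0397). That last call was lost with the replicate block (0.0606) and with no filter (0.0656). Its changes on slide 2 alone were -0.45 and -0.30, and at day 22 on slide 1 alone -1.07. Robo1 was not called (-0.32 ± 0.34 and -0.33 ± 0.34).

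Robo4, the Robo of blood vessel endothelium, was detected well above background on each of the 6 day 0 arrays, at -5.34 to -3.80 (median -4.05), and on 0 of the 12 arrays of the later days. Against the lowest measurable signal it was at least 2.54-fold lower on day 10 (adjusted p = 0.00394) and at least 2.48-fold lower on day 22 (0.000538). These bounds hold for the processed signal: with normexp the log2 changes were -0.41 ± 0.11 (0.0255) and -0.51 ± 0.11 (0.00534). The mean of 8 endothelial markers ranged from -1.58 to -0.70 on day 0, -1.01 to -0.71 on day 10 and -0.95 to -0.81 on day 22, and Tie1 and Tek did not pass the filter. Of these 8, Esam was called higher on both later days and Pecam1 lower on day 22 (-0.30 ± 0.09), while Cdh5, Kdr, Emcn, Eng, Egfl7 and Cldn5 were not called. Cldn5, a tight junction protein of endothelium, was at -1.82 ± 0.58 on day 10 (adjusted p = 0.0718) and -1.72 ± 0.58 on day 22 (0.0531), and Cdh5 and Kdr were at 0.17 ± 0.45 and 0.14 ± 0.20 on day 22.

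**Figure D3:**
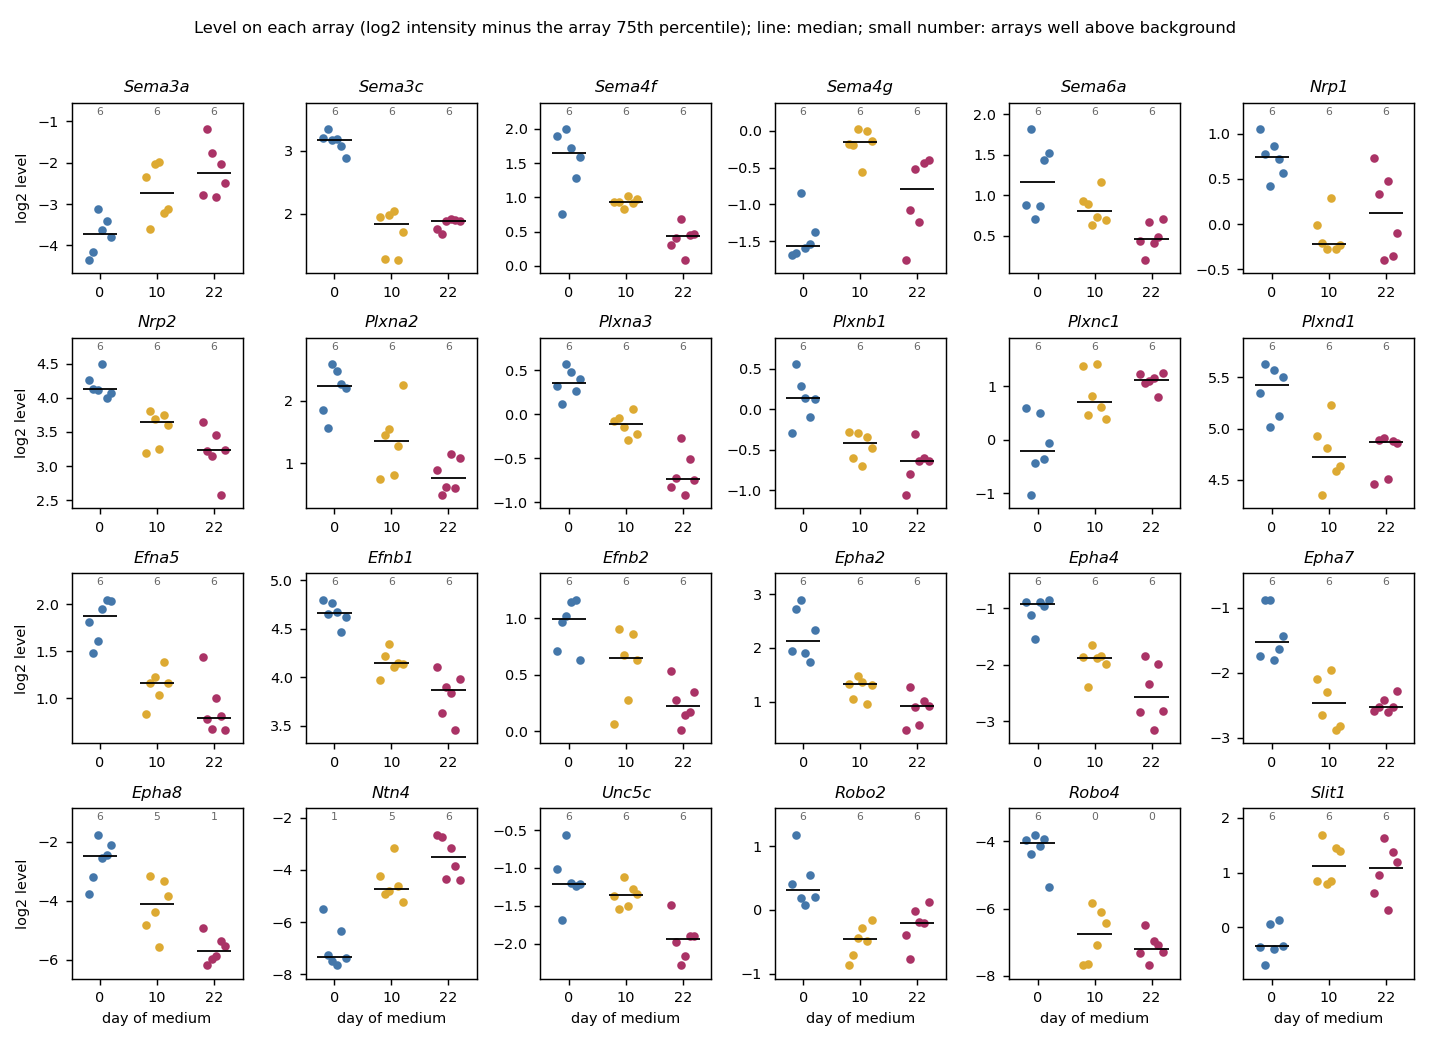
Log2 level after subtraction of each array's 75th percentile (vertical axis) of the 24 genes called in at least 1 comparison, by day of myelination medium (horizontal axis). Points are arrays, 6 a day, lines are day medians, and small numbers count the arrays well above background. Sema3c drops between day 0 and day 10 and stays near 1.88. The medians of Plxna3 and Sema4f are lower on day 22 than on day 10, but neither gene was called between these days.

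Across roles, 24 of the 66 genes were called in at least 1 comparison and 0 of them in opposite directions in different comparisons. Of all features, 12.6% rose and 18.6% fell in the comparison of day 22 with day 0 alone, so the count is not particular to these genes. The 42 genes called in none had changes at day 22 against day 0 between -1.44 (Sema5b) and 1.33 (Epha1), with a median of 0.02 and a median SE of 0.26. Among the 66 genes 17 had several probes, and 0 genes called on their brightest probe had a probe with the opposite sign. Known ligand and receptor pairs were called in opposite directions in some cases and in the same direction in others. Slit1 rose and Robo2 fell on both later days. Sema6a and Plxna2 both fell to day 22, as did Efna5 and the ephrin receptors Epha4 and Epha7.

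Other genes of the pathway were read from a list of 51 co-receptors, cytoplasmic mediators and further ligands, 49 of them tested. At day 10 2 of these rose and 4 fell (4.08% and 8.16%, beside 5.75% and 7.72% of all features). Ntn5, a small netrin, rose by 2.46 ± 0.35 (adjusted p = 0.00618) and Ntn3 by 0.73 ± 0.20, and Trio, an exchange factor downstream of Dcc, fell by 0.61 ± 0.11, with Nck2, Farp1 and Ptk2 also lower. From day 10 to day 22 0 rose and 1 fell (2.04%), beside 0.49% and 1.45% of all features. The gene that fell was Cdk5r1, the activator of the kinase Cdk5 that acts in semaphorin signalling (-0.94 ± 0.16, adjusted p = 0.0313).

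At day 22 against day 0, 4 of the 49 rose and 18 fell (8.16% and 36.7%, beside 12.6% and 18.6% of all features), with a median of -0.36 beside -0.08. Among collapsin response mediators, which carry semaphorin signals to the cytoskeleton, Crmp1 fell by 1.67 ± 0.24, Dpysl4 fell by 1.20 ± 0.19 and Dpysl3 fell by 1.04 ± 0.17, while Dpysl2 and Dpysl5, at -0.20 ± 0.13 and -0.35 ± 0.27, were not called. Dscam, a netrin-binding adhesion molecule, fell by 2.07 ± 0.31, and the actin-binding Ablim3 and Ablim1 fell by 1.65 ± 0.22 and 1.05 ± 0.19. Vav3, an exchange factor used by Eph receptors, rose by 2.90 ± 0.56, Rnd1, a small GTPase that binds plexins, by 2.00 ± 0.49 and the kinase Fes by 1.74 ± 0.36. Sensory neuron markers had a median change of -0.55 from day 10 to day 22 with 0 of 12 called. Of the 12, 4 had an unadjusted p under 0.05 by limma, beside 16.9% of all features.

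The promoters of these genes were read for short motifs, since early growth response factors such as Egr2 and SOX factors such as Sox10 drive myelination in Schwann cells. RefSeq windows of the 250 bases before a start (GRCm38.p6) were found for 60 of the genes, 76 windows in all, out of 32536. The EGR motif GCGNGGGCG, on either strand, was in 15.8% of these windows and 4.74% of all. The GC box GGGCGGGG, which can overlap the EGR motif, was in 42.1% and 16.2%, and the median GC content was 64.4% and 52.4%. The SOX motif ACAAAG was in 10.5% and 16.5%, AP-1 (TGANTCA) in 3.95% and 6.73%, CRE (TGACGTCA) in 1.32% and 1.56% and E2F (TTTCCCGC) in 0% and 0.90%. Of 22 called genes with a window 5 held the EGR motif, beside 12 of all 60 genes with a window. The 5 were Efna5, Epha8, Plxna2, Plxnc1 and Sema4g, of which Plxnc1 and Sema4g rose and the others fell. Egr2 itself was not called (0.44 ± 0.65 at day 10). Below are 3 of these windows, from Plxna2 and Epha8, which fell, and Sema4g, which rose, to show the same motif beside opposite changes. They run 5′ to 3′ on the strand of the gene, at chr1:194619579-194619828 (plus), chr4:136956817-136957066 (minus) and chr19:44989094-44989343 (plus), with EGR motifs and GC boxes in capitals.
Plxna2: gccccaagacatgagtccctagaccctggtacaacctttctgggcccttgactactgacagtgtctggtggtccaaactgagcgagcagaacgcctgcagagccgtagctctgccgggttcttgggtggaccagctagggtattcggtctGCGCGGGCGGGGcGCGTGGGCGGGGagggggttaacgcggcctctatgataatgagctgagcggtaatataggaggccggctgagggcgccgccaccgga
Epha8: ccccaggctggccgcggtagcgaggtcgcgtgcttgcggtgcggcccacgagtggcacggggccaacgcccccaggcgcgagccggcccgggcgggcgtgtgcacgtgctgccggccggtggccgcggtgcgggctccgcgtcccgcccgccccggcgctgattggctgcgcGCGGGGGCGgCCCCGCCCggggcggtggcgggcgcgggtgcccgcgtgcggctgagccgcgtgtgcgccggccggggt
Sema4g: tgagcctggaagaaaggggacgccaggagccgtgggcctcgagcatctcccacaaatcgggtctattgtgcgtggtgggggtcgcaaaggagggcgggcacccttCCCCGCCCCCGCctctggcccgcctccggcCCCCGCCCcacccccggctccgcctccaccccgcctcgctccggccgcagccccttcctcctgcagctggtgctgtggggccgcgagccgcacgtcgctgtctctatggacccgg
In Plxna2 the motifs stand as 2 EGR matches, each overlapping a GC box. A match is a description of the letters and not evidence of binding.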

How the data were processed

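RNA of 18 explant samples was measured, each on 1 one-colour Cy3 array from 100 ng of total RNA, per the labels' protocols. The authors extracted spot intensity with Agilent Feature Extraction 10.7.1.1, per the file headers (10.7.1 per the submitters' processing notes), and the flags of 0 and 1 are other output of that software in the deposited files. A second deposited file, the authors' value table, holds linear intensity, and its normalization is not given in the sources used here. Every column of it was set against every array file (Spearman correlation at least 0.99991 with 1 file and at most 0.975 with any other).

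The processed intensity was put on the log2 scale and the array's 75th percentile subtracted (584 to 747). Control and outlier spots (93 to 181 per array) were left out, and 0 spots were saturated. Repeated spots were averaged per probe. Probes had to be well above background on every array of 1 or more days (30432 of 55681). Accessions were matched without versions to RefSeq (assembly GRCm38.p6, not the arrays' build, 26582 probes), and the brightest probe stood for a gene. limma 3.58.1 (lmFit, eBayes; R 4.3.3) was fitted to 9 batch means with 3 days as groups, Benjamini-Hochberg over 22855 features, once with each set of batches. The fit was tested on simulated data. For Robo4, dim arrays entered the bound with whichever was higher, the probe's value or the array's lowest value among probes well above background.

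The replicate numbers pair the samples across days, since the labels say that a number marks a shared batch. Deviations of same-numbered samples of different days correlated at -0.13 to 0.37 (array files) and -0.08 to 0.46 (value table), and those of the 2 arrays of a batch at -0.55 to 0.23 and -0.16 to 0.48. Genes given in full were the 4 called members per role with the largest change. Any member well above background on every array of a day and on none of another (Robo4) was included too. The members, the gene lists and the rules were chosen with earlier results of these data known. Alternatives were the batches, the replicate block, background correction by normexp (offset 50, from median signals, since a mean signal column was not used here), the authors' values, no filter, mean of probes, slide, and each batch left out.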

Additional observations from a re-analysis of the deposited data

Results flagged for a closer look

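In 3 of 57 groups of 6 arrays, an array stood apart from its day by Dixon's ratio at its 95% critical value, and chance gives about 1 in 20. Sema4g was at -0.84 on the array filed as batch 2, array 1 of day 0, where the other 5 arrays lay between -1.69 and -1.37. On day 10 it was at -0.56 on batch 2, array 2, where the others lay between -0.19 and 0.02. Robo4 was at -5.34 on batch 3, array 2 of day 0, where the others lay between -4.37 and -3.80.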

How the results depend on the processing

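Of 612 changes recomputed for the called genes, 0 reversed in sign and 136 fell short of the threshold under an alternative. At day 10 against day 0, 14 genes were called, and the batches of the array files alone gave 25, slide 1 alone 1, slide 2 alone 0, and leaving out a batch 3 to 12. At day 22 against day 10, 0 were called, and the replicate block (Sema5b), the slide as a block (Plxna3) and leaving out the array low in neuron markers (Unc5c, an alternative chosen after seeing the data) gave 1 each, with 7 from the batches of the array files alone. At day 22 against day 0, 22 were called, and slide 1 alone gave 9, slide 2 alone 14, and leaving out a batch 18 to 23. The paired analysis, with the replicate block, called 14, 1 and 25 genes in the 3 comparisons. At day 10 it lost Epha4 and Plxna3 and gained Neo1 and Plxnc1. At day 22 against day 0 it lost Plxnd1 and Robo2 and gained Epha6, Nrp1, Sema5b, Sema6b and Unc5a. The slide fits use fewer arrays, and the cause of the other differences was not tested. With normexp, the authors' values, no filter, the mean of probes and the batches of the value table alone, each count stayed within 1.5 times the reported one. The authors' values lost Efnb1, Epha4 and Nrp1 at day 10, and no filter lost these and Plxna3, and Robo2 at day 22. Normexp kept every call but moved 6 sizes by over 1.5 times, those of Ntn4 (2.43 to 0.55 and 3.41 to 0.88), Epha8 (-3.01 to -1.08), Robo4 (-2.54 to -0.41 and -2.89 to -0.51) and Sema3a (1.57 to 0.92), so genes near background are not ranked by size. Signals near background limit Epha8, Ntn4 and Robo4.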
